A study of Mus musculus with 6 samples.

Results

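The collagen gene family of the mouse was described in cultured bone marrow stromal cells. Members were all protein-coding genes whose symbol is Col, a number, the letter a and a number, which gave 44 genes of the 27263 listed. They were sorted by the structure their proteins form: 11 fibrillar, 9 network-forming, 9 FACIT (fibril-associated collagens with interrupted triple helices), 6 beaded-filament and 9 other members. The cells were primary stromal cells from the marrow of tibiae and femurs of C57BL/6 mice, sorted as positive for Sca-1 and CD29 and negative for CD45 and CD11b. All were grown in medium with 10% fetal bovine serum, and 3 libraries came from cells given PBS, the buffer control, and 3 from cells given rGCA at 50 nM, each for 3 days (PBS and GCA below). The labels do not spell out rGCA; from knowledge of the study it is recombinant grancalcin, a protein of myeloid cells that binds calcium. The labels give neither the age of the mice nor whether replicates were separate cultures or animals. The p-values therefore describe spread among these 6 libraries alone, which may be technical.

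Collagens are secreted proteins built from 3 chains wound into a triple helix, which is possible because glycine recurs at a fixed spacing along the helical part. Fibrillar collagens carry a long unbroken helix and pack into the fibrils of bone, skin and tendon, whereas network collagens form the sheets of basement membranes, FACIT collagens sit on fibril surfaces and beaded collagens form fine filaments around cells. Stromal cells of the marrow are a main source of these proteins and give rise to the osteoblasts that deposit the type I collagen of bone.

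The libraries held 17543509 to 18645932 fragments in the totals behind the FPKM values (fragments per kilobase of exon and scaled to the library total), and 1 fragment in a gene of 2 kb was worth 0.0268 to 0.0285 FPKM. The labelled cell type was checked against its markers. Of 12 stromal markers, 10 reached a mean of 1 FPKM, with Lepr and Nt5e below it, and their summed level was 827.1 to 879.8 FPKM in PBS and 818.5 to 917.7 in GCA, with 1 higher (Vcam1), 1 lower (Pdgfrb) and 8 not past the threshold. Macrophage markers were also present although the sort removed CD45+ and CD11b+ cells: 18 of the 19 listed reached 1 FPKM, only Cx3cr1 was below it, and Ptprc, which encodes CD45, stood at 12.6 ± 0.59 FPKM (SD, n = 3) in PBS and 13.45 ± 0.89 in GCA. Their sum was 18400 to 20510 FPKM in PBS and 15860 to 17150 in GCA, with 9 higher and 1 lower, Lyz2, whose adjusted p of 0.00241 (limma) became 0.438 after quantile normalization. Lyz2 made up most of that sum, and the other 18 listed markers summed to 5774 to 6295 FPKM in PBS and 7463 to 7873 in GCA, the opposite direction. Beside these marker counts, 6.43% of all 11984 tested genes were called lower and 11.5% higher (limma, adjusted p under 0.05). Of 6 endothelial markers only Cdh5 reached 1 FPKM (1.33 ± 0.0776 in PBS and 1.17 ± 0.232 in GCA, adjusted p = 0.472). The part of these other cells in the collagen values was not tested, and in bulk RNA fewer cells of a type and less RNA per cell cannot be told apart.

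The repeat that defines the family is shown first, because it is what the 44 genes share and what sets the classes apart. Each line gives 54 bases from the start of the longest unbroken stretch in which a glycine codon opens each triplet of codons. The coding sequence is that of the longest coding transcript in GENCODE M21 on GRCm38. Capitals mark the glycine codon that opens each triplet. Glycine codons at other places in a triplet, as in Col3a1, are in lower case.

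Col1a1 (fibrillar, chr11:94939451-94939741, + strand, exons 6 to 7): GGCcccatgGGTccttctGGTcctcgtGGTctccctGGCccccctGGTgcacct

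Col3a1 (fibrillar, chr1:45323762-45325377, + strand, exons 5 to 6): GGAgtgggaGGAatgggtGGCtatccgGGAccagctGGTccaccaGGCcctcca

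Col4a1 (network, chr8:11247060-11267614, - strand, exons 2 to 3): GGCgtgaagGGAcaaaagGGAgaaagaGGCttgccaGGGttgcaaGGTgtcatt

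Col12a1 (FACIT, chr9:79612925-79613769, - strand, exons 56 to 57): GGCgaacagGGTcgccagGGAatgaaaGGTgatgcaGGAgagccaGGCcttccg

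Col6a1 (beaded, chr10:76719659-76720996, - strand, exons 8 to 9): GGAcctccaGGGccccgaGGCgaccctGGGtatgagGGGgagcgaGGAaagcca

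Col18a1 (other, chr10:77077693-77077746, - strand, exon 12): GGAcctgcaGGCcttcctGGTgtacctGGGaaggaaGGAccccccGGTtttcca

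In 5 of these 6 stretches the 54 bases run across an exon boundary, and the coordinates then span the intron between. The classes differed in how long the repeat ran without a break. The longest unbroken run was 338 triplets in the median fibrillar gene, with a range from 216 in Col24a1 to 344, against 45 in network, 57 in FACIT, 45 in beaded and 40 in other members. The longest run outside the fibrillar class was 113 triplets, which is shorter than the shortest fibrillar run. It was found in the FACIT genes Col9a1, Col9a2, Col9a3 and Col22a1. The exons carry the same unit: 305 of 627 internal coding exons of fibrillar genes (48.6%) were exactly 54 bases long, against 109 of 414 in FACIT (26.3%), 17 of 206 in beaded (8.25%) and 12 of 284 in network genes (4.22%). In the other tested protein-coding genes it was 406 of 98109 exons (0.414%).

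**Figure D1:**
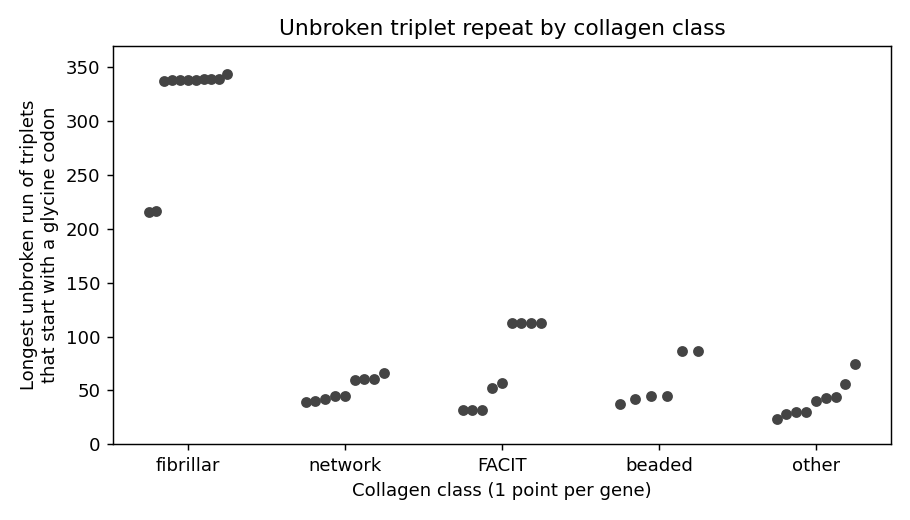
Longest unbroken run of triplets that start with a glycine codon (y axis) in each of the 44 collagens, grouped by class (x axis, 1 point per gene). The 11 fibrillar genes lie at 216 to 344 triplets and the genes of every other class at 113 or fewer.

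Repetitive coding sequence can make reads ambiguous. The share of 50-base words that the longest coding transcript of each collagen holds in common with another gene was therefore computed. It was 0% for most tested members. The exceptions were Col3a1 at 1.67%, all with the predicted gene Gm47302, Col5a1 at 1.44%, with 2810430I11Rik and Gm13372, and Col8a1 at 0.02%. The sources used here do not say how the authors assigned such reads, so the levels of these 3 genes carry that uncertainty. Only exact matches to annotated transcripts were counted, and exons outside the longest coding transcript were not searched. The other members are therefore not shown to be free of ambiguous reads.

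The comparison of GCA with PBS asked how collagen transcripts differed after 3 days with the protein. Of the 44 members, 22 reached a mean of 1 FPKM and were tested. With GCA, 11 of the 22 fell, 1 rose (Col2a1) and 10 did not pass the threshold, an adjusted p of 0.05 from a limma fit over all 11984 tested genes. The background was 6.43% of tested genes lower and 11.5% higher, or 17.9% in either direction. That was 1380 genes higher and 771 lower, a split that quantile normalization turned to 1198 and 1027, with 10 collagens then lower and 1 higher. The median log2 fold change of the 22 was -0.28, with 19 below 0, beside a median of 0.01 over all tested genes. The number of lower members was 7 without PBS replicate 2, and likewise 7 without GCA replicate 1. The lower members were Col1a2, Col3a1, Col5a1, Col5a2 and Col11a1 among fibrillar genes, Col4a1, Col4a2, Col4a5 and Col8a1 among network genes, Col6a1 among beaded genes and Col18a1. By their values alone, all 3 GCA libraries lay below all 3 PBS libraries in 14 of the 22, against 16.8% of tested genes, and above them in 1, against 21.6%.

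**Figure D2:**
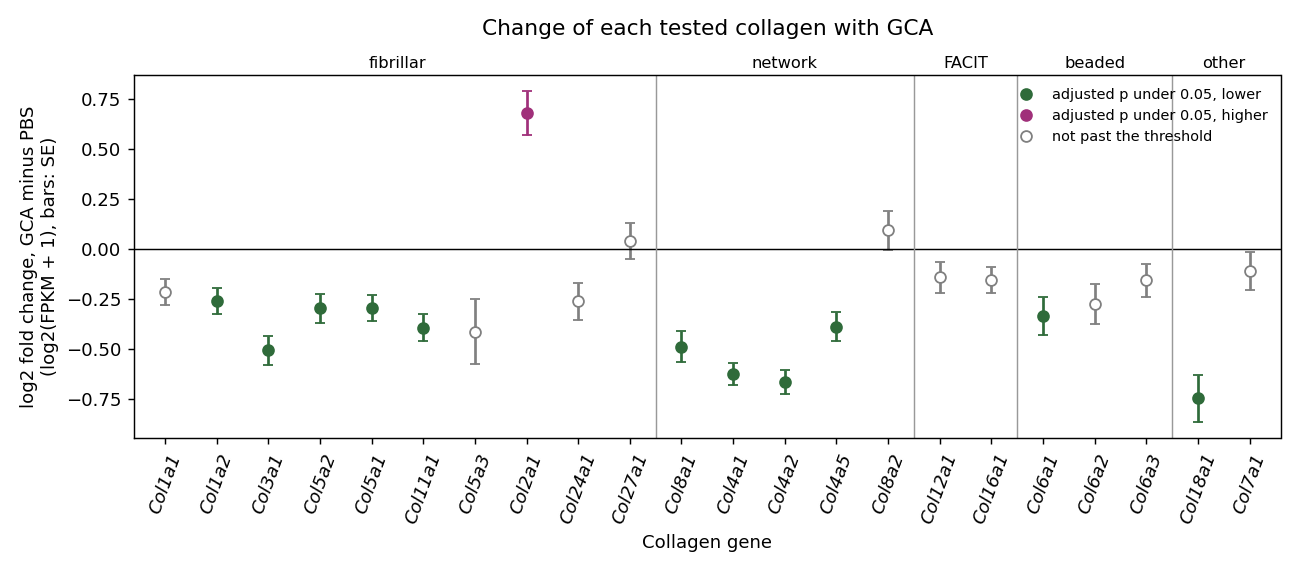
Log2 fold change of each tested collagen, GCA minus PBS, on the log2(FPKM + 1) scale (y axis, bars are SE from the limma fit, 3 libraries per group), by gene and class (x axis). Of the 22 points, 11 are past the threshold below 0 and 1, Col2a1, above it.

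Collagens took 1.04% of the FPKM of all protein-coding genes in PBS and 0.849% in GCA. The summed level of the 44 members was 3436, 3081 and 3008 FPKM in the PBS libraries and 2487, 2623 and 2657 in the GCA libraries, each in the order of replicates 1 to 3. The 3 GCA sums were all lower than the lowest PBS sum. The means were 3175 ± 229 and 2589 ± 89.8 FPKM (SD, n = 3 each), which was 18.45% lower with GCA, with an exact two-sided permutation p of 0.1, the smallest that 3 against 3 libraries allow.

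By class, network collagens summed to 354 ± 12.9 FPKM in PBS and 239.7 ± 15.1 in GCA, which was 32.25% lower. Fibrillar collagens went from 2532 ± 186 to 2109 ± 79.8 FPKM, 16.7% lower, and beaded collagens from 185 ± 20.8 to 149.7 ± 13.9, 19.2% lower. In these 3 classes, and in the other members at 16.2 ± 2.13 and 10.8 ± 1.03 FPKM, the groups did not overlap, with an exact permutation p of 0.1 each. FACIT collagens overlapped between the groups, at 88.1 ± 8.15 and 79.65 ± 3.09 FPKM, with an exact permutation p of 0.2. As a share of all collagen FPKM, network members were 10.7%, 11.3% and 11.4% in PBS and 9.37%, 8.73% and 9.67% in GCA, so each GCA library was lower. The fibrillar share was 79.7% ± 0.195 in PBS and 81.5% ± 0.290 in GCA, higher in each GCA library. So was the FACIT share, at 2.78% ± 0.145 and 3.08% ± 0.0593. Each of these class shares had an exact permutation p of 0.1, the smallest possible, and an adjusted p of 0.125 over the 5 classes. Fibrillar members did not move alike in share of mean collagen FPKM. Col1a1 went from 41.99% in PBS to 44.4% in GCA and Col1a2 from 18.1% to 18.55%, but Col3a1 from 7.68% to 6.62%.

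**Figure D3:**
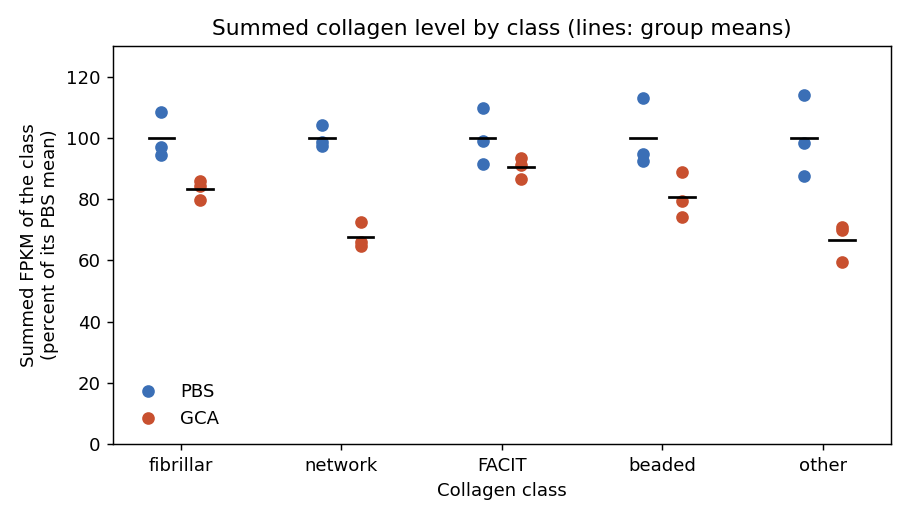
Summed FPKM of each collagen class in the 6 libraries as a percent of the class mean in PBS (y axis), by class (x axis). Points are libraries and lines group means; the GCA points of the network class lie lowest against PBS among the 4 named classes, 32.25% below on average, and FACIT points overlap.

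Among the fibrillar collagens, Col1a1 encodes the alpha-1 chain of type I collagen, the main protein of bone matrix, and lies at chr11:94936224-94953042. It was the most abundant member, 41.99% of all collagen FPKM in PBS and 44.4% in GCA. Its level was 1441, 1293 and 1266 FPKM in PBS and 1087, 1172 and 1187 in GCA. The groups did not overlap, with GCA lower, but the test was not passed: the log2 fold change was -0.21 (SE 0.065, adjusted p = 0.0578 by limma). It passed with median centring (adjusted p = 0.0467), a filter at 5 FPKM (0.0431), protein-coding genes alone (0.0404) and limma-voom on recovered fragments (0.0202), and over all alternatives the adjusted p ran up to 0.245, with quantile normalization. Col1a2, the alpha-2 chain of the same trimer, was at 633, 554 and 541 FPKM in PBS and 476, 477 and 489 in GCA. All GCA libraries were lower, and the fall was by 0.26 on the log2 scale (SE 0.065, adjusted p = 0.0289). That call was lost without PBS replicate 2 (adjusted p = 0.0612) and without GCA replicate 1 (0.0915), 2 (0.0540) or 3 (0.0652).

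Col3a1, the single chain of type III collagen, which mixes into type I fibrils, fell the most of the abundant fibrillar genes. Its levels were 265, 234 and 232 FPKM in PBS and 158, 185 and 171.5 in GCA. The 3 GCA libraries were all below PBS and the means differed 1.42-fold (log2 fold change -0.51, SE 0.074, adjusted p = 0.00361). Col5a1 and Col5a2 encode chains of type V collagen, which starts fibrils and limits their width. Col5a1 was at 143, 131 and 122 FPKM in PBS and 104, 109.8 and 107.8 in GCA, and Col5a2 at 199, 191 and 178 in PBS and 149, 144.5 and 169 in GCA. Neither gene overlapped between groups, and both were lower with GCA, by 18.7% (adjusted p = 0.0164) and 18.6% (adjusted p = 0.0234). The Col5a1 call was lost without PBS replicate 2 (adjusted p = 0.0551) or GCA replicate 1 (0.0605). The Col5a2 call was lost without PBS replicate 1 (0.0745) or 2 (0.0772) or GCA replicate 1 (0.0811) or 2 (0.0508), and after quantile normalization (0.0516).

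Col11a1, a chain of type XI collagen, the counterpart of type V in cartilage, was at 45.3, 41.5 and 39.5 FPKM in PBS and 29.9, 31.4 and 34.2 in GCA. All GCA libraries were lower, 1.32-fold on average (log2 fold change -0.39, SE 0.068, adjusted p = 0.00725). The remaining fibrillar genes were scarce. Col5a3, another type V chain, was at 7.70 ± 1.54 FPKM in PBS and 5.51 ± 1.03 in GCA, with overlapping groups (adjusted p = 0.13). It passed without PBS replicate 3 (adjusted p = 0.0373). Col24a1, a minor fibrillar gene, was at 1.82 ± 0.199 and 1.35 ± 0.173 FPKM with no overlap but an adjusted p of 0.0837, and Col27a1, known from cartilage, was at 1.20 ± 0.174 and 1.25 ± 0.0571 (adjusted p = 0.80). Col24a1 passed with limma-voom on recovered fragments (adjusted p = 0.0178) and when protein-coding genes alone were tested (0.0482).

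Col2a1, the chain of type II collagen, the main collagen of cartilage, moved the other way. It was at 4.57, 4.18 and 3.73 FPKM in PBS and 8.40, 6.10 and 7.37 in GCA. Each GCA library was above each PBS library, a 1.75-fold rise on 615 to 1386 recovered fragments per library (log2 fold change 0.68, SE 0.108, adjusted p = 0.00575). It was called higher under all 16 alternative fits. Other cartilage genes were given beside it: of 9 listed chondrocyte markers, Col9a1, Col11a2, Matn1, Matn3, Hapln1 and Cnmd were under 1 FPKM, and Col2a1 was the single one of the 3 tested that passed. Sox9, the transcription factor of cartilage, was at 2.95 ± 0.418 FPKM in PBS and 2.62 ± 0.267 in GCA with overlapping groups, and Comp, a cartilage matrix protein, at 2.23 ± 0.292 and 2.90 ± 0.188 with each GCA library higher (adjusted p = 0.0575). Matn1, another cartilage matrix protein, was at 0.165, 0.0826 and 0.0841 FPKM in PBS and 0.756, 0.741 and 0.563 in GCA, all GCA libraries higher, on 3 to 27 fragments. The summed level of the 9 was 9.38 to 11.5 FPKM in PBS and 13.2 to 15.2 in GCA, Col2a1 included. Col2a1 alone went from a mean of 4.16 FPKM in PBS to 7.29 in GCA. The sum is therefore not separate from the rise of that gene and does not show a rise of the other markers.

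**Figure D4:**
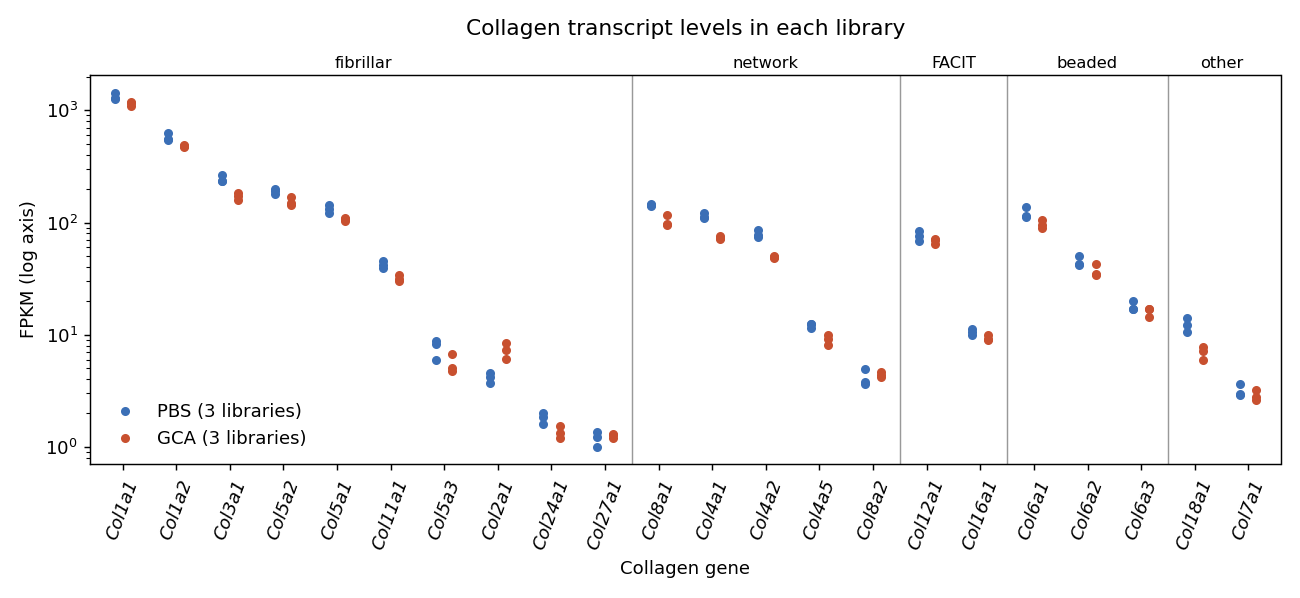
FPKM of the 22 tested collagens (log y axis) in each library, by gene and class (x axis), with PBS and GCA points side by side. Col1a1 reaches 1441 FPKM and Col27a1 lies near 1 FPKM, and the 3 GCA points of Col4a1, Col4a2, Col3a1 and Col18a1 sit below the 3 PBS points.

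The network class held the members with the smallest adjusted p of the family. Col4a1 and Col4a2 encode the chains of the common type IV collagen of basement membranes. Col4a1 was at 121, 111 and 109 FPKM in PBS and 72.8, 71.3 and 75.99 in GCA. All 3 GCA libraries were lower by a wide margin, 1.55-fold on average (log2 fold change -0.63, SE 0.055, adjusted p = 0.000495). Col4a2 was at 84.97, 74.4 and 77.3 FPKM in PBS and 50.8, 47.8 and 49.45 in GCA. Again no library overlapped, with a 1.60-fold lower mean (log2 fold change -0.66, SE 0.058, adjusted p = 0.000495). Col4a5, a chain of another type IV trimer found in kidney and some other membranes, was at 12.55, 11.4 and 12.35 FPKM in PBS and 9.84, 8.09 and 9.20 in GCA, all GCA libraries lower (log2 fold change -0.39, adjusted p = 0.0103).

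Type VIII collagen forms hexagonal lattices and is known from vessel walls and the cornea. Its Col8a1 chain was at 143, 147 and 139.9 FPKM in PBS and 94.15, 96.8 and 117 in GCA. The groups did not overlap, GCA replicate 3 being the nearest to PBS, and the mean fell 1.40-fold (log2 fold change -0.49, SE 0.079, adjusted p = 0.0058). Col8a2, the partner chain, was low, at 4.10 ± 0.709 FPKM in PBS and 4.401 ± 0.222 in GCA with overlapping groups (adjusted p = 0.553).

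Col4a1 and Col4a2 start from opposite strands of the same short stretch of DNA: Col4a1 is at chr8:11198423-11312826 on the - strand and Col4a2 at chr8:11312805-11449287 on the + strand, with 22 bases in common. The sources used here do not say whether the authors' counting used strand, so reads in those bases cannot be assigned to either gene. The promoters are shown because the genes share this stretch and both fell. Each line gives 250 bases before and 50 bases after the start in RefSeq on GRCm38.p6, 5′ to 3′ on the strand of the gene. Capitals mark 3 motifs on either strand: CCAAT, the GC box GGGCGG and the TATA box TATAAA.

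Col4a1 (chr8:11312777-11313076, - strand): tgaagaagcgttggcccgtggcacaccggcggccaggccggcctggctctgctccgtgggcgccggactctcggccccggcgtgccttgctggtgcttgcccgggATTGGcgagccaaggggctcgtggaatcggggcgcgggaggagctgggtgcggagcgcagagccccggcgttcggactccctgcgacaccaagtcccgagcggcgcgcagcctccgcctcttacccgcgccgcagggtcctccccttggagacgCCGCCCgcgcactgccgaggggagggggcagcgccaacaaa

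Col4a2 (chr8:11312555-11312854, + strand): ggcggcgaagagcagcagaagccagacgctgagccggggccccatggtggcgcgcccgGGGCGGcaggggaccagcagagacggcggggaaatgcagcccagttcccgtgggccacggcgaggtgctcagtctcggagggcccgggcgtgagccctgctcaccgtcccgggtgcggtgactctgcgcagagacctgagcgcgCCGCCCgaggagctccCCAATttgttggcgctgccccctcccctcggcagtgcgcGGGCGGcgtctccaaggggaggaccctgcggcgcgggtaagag

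The windows overlap by 78 bases, and the last GC box of each is the same element read on opposite strands. Neither window held a TATA box. The deposited values do not bear on binding to these motifs, and the match is a description of the letters only. Of the 44 members, 35 had a promoter entry. Among the 20 windows of the 18 tested members with an entry, 45% held CCAAT, 75% the GC box and 5% the TATA box, the last in Col3a1 alone, beside 37.6%, 63% and 7% of 11228 windows of all tested genes. No entry was matched for Col1a1, Col2a1, Col5a2, Col12a1, Col14a1, Col22a1, Col26a1, Col4a3 and Col9a3.

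Other members also lie side by side. Col4a4 and Col4a3 start 71 bases apart on opposite strands, as do Col4a6 and Col4a5 with a gap of 1308 bases. Of the latter pair, Col4a5 was among the lower members while Col4a6 was at 0.118 and 0.0646 FPKM, too low to test. Col3a1 and Col5a2 are 24614 bases apart, and both fell. Col6a2 and Col6a1 are 85161 bases apart, and Col6a1 fell while Col6a2 did not pass the limma test (adjusted p = 0.10).

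Of the FACIT collagens 0 passed the limma test, with 1 of the 2 tested, Col16a1, at an unadjusted p under 0.05, and 0 passed with limma-voom on recovered fragments. Col12a1, the most abundant, encodes type XII collagen on the surface of type I fibrils. It was at 83.7, 68.4 and 75.8 FPKM in PBS and 64.5, 71.6 and 69.55 in GCA. The groups overlapped, and the log2 fold change, -0.14 with an SE of 0.077, had an adjusted p of 0.239. Col16a1, a minor FACIT gene, was at 10.6 ± 0.739 FPKM in PBS and 9.37 ± 0.561 in GCA, also overlapping (adjusted p = 0.141). The other 7 FACIT members were under 1 FPKM.

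Type VI collagen, the beaded class, is built from the Col6a1 and Col6a2 chains and one longer chain such as Col6a3. Col6a1 was at 138, 115.4 and 112 FPKM in PBS and 94.9, 105 and 88.6 in GCA. The groups did not overlap and GCA was lower (log2 fold change -0.34, SE 0.094, adjusted p = 0.0454). This was the weakest call of the family and was lost without PBS replicate 1 (adjusted p = 0.0863), 2 (0.0794) or 3 (0.0551), without GCA replicate 1 (0.12) or 3 (0.123), and without trend and robust moderation (0.0633). Col6a2 was at 45.2 ± 4.64 FPKM in PBS and 37.2 ± 4.64 in GCA with overlapping groups (adjusted p = 0.10), and passed without GCA replicate 2 (0.0204). Col6a3 was at 18.05 ± 1.80 FPKM and 16.1 ± 1.37, with no overlap but an adjusted p of 0.235.

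Of the members outside these classes, Col18a1 encodes a collagen of basement membranes whose end fragment is known as endostatin. It was at 13.98, 12.3 and 10.55 FPKM in PBS and 7.10, 7.76 and 5.90 in GCA. All GCA libraries were lower, 1.78-fold on average (log2 fold change -0.75, SE 0.117, adjusted p = 0.0058). Its level rests on 772 to 1789 recovered fragments per library. Col7a1, the anchoring-fibril collagen, was at 3.18 ± 0.431 FPKM in PBS and 2.86 ± 0.325 in GCA (adjusted p = 0.451). By fold, Col18a1, Col4a2 and Col4a1, in that order, fell the most of the 22.

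The other 22 members were under the 1 FPKM filter, with means over the 6 libraries from 0.0010 to 0.985 FPKM, and 9 of them had at most 10 recovered fragments in every library. Together they made up 0.133% of collagen FPKM in PBS. They included most cartilage and epithelial collagens (Col9a1, Col9a2, Col9a3, Col11a2, Col17a1) and the type IV chains Col4a3, Col4a4 and Col4a6. Col10a1, the collagen of hypertrophic cartilage, was the member just outside the filter, at 1.14, 1.04 and 1.38 FPKM in PBS and 1.00, 0.565 and 0.788 in GCA, and Col27a1 the one just inside it. Col10a1 was lower in all GCA libraries, on 31 to 77 fragments. Col15a1, a relative of Col18a1, was at 0.302, 0.182 and 0.203 FPKM in PBS and 0.485, 0.494 and 0.541 in GCA. All its GCA libraries were higher, on 21 to 64 fragments, which is opposite to the direction of Col18a1. Among the 22, groups did not overlap in 3 lower genes (Col10a1, Col4a4, Col4a6) and 2 higher ones (Col15a1, Col6a5), against 4.27% and 5.47% of the genes under the filter. A limma fit over all 27263 genes called 0 of the 22 (adjusted p 0.0983 to 0.981; 2 at an unadjusted p under 0.05), with 1.25% of genes lower and 2.70% higher in that fit.

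Because collagen trimers can combine chains of different genes, the ratio of the FPKM of 2 chains was compared for 6 chosen pairs in which both were tested. The proportions of the chains in the protein were not measured. Not every possible pair was computed (Col6a2 with Col6a3 and Col5a3 with its partners were not). Each of the 6 was tested with an exact two-sided permutation test and adjusted over the 6. Col1a1/Col1a2 was 2.32 ± 0.03 in PBS and 2.39 ± 0.09 in GCA (SD, n = 3), with overlapping groups and an exact permutation p of 0.3. Per length of the longest coding transcript instead of all annotated exons, the same ratio was 1.10 and 1.14, since the exons of Col1a2 total 12426 bases against 5348 in that transcript. The level of a chain ratio therefore rests on the length used, and the comparison between groups does not. Col4a1/Col4a2 was 1.44 ± 0.04 and 1.49 ± 0.05, and Col5a1/Col5a2 0.70 ± 0.02 and 0.70 ± 0.06, both overlapping.

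In 2 pairs the groups did not overlap. Col8a1/Col8a2 was 29.1, 40.7 and 37.2 in PBS and 21.7, 22.97 and 25.1 in GCA, lower in every GCA library, with a log2 difference of -0.61. Col6a1/Col6a3 was 6.87, 6.80 and 6.57 in PBS and 5.61, 6.25 and 6.11 in GCA, again lower in each, with a log2 difference of -0.17. Both had an exact permutation p of 0.1, the smallest possible, and an adjusted p of 0.3. Col6a1/Col6a2 was 2.69 ± 0.04 and 2.59 ± 0.13 with overlap.

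**Figure D5:**
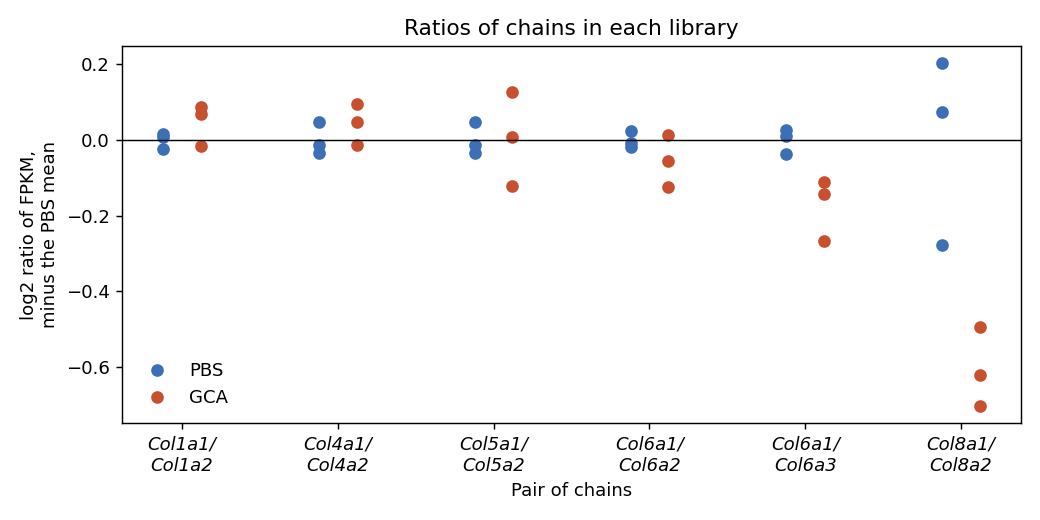
Log2 ratio of the FPKM of 2 chains in each library, minus the PBS mean of that pair (y axis), for 6 pairs (x axis), with PBS and GCA points side by side. The GCA points of Col8a1/Col8a2 and Col6a1/Col6a3 lie below all PBS points, and the other 4 pairs overlap.

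Genes that modify, fold, secrete, process or cross-link collagen were given from a list of 38, of which 35 were tested. With GCA, 17 fell, 1 rose and 17 did not pass, beside 6.43% of all tested genes lower and 11.5% higher. The median log2 fold change was -0.20, beside 0.01 for all tested genes. The number called in either direction, 18, was 11 without PBS replicate 3 and 11 without GCA replicate 1. Loxl2, a cross-linking enzyme, went from 42.7 ± 1.61 to 32.8 ± 1.27 FPKM (adjusted p = 0.00266), and Lox, the main lysyl oxidase, from 483 ± 24.0 to 405.5 ± 7.69 (adjusted p = 0.0134, and 0.057 without GCA replicate 1). P4ha2 and P4ha1 encode prolyl hydroxylase subunits, which stabilise the helix. P4ha2 fell from 11.8 ± 0.318 to 8.92 ± 0.430 FPKM (adjusted p = 0.00317), and P4ha1 from 41.3 ± 1.43 to 35.2 ± 2.48 FPKM (adjusted p = 0.0332). The P4ha1 call was lost without PBS replicate 1 (0.0958), 2 (0.104) or 3 (0.0586), without GCA replicate 2 (0.067) or 3 (0.0934), and without trend and robust moderation (0.0544). Pcolce, which enhances removal of the procollagen end piece, went from 80.4 ± 1.26 to 64.9 ± 2.41 FPKM (adjusted p = 0.00378). Serpinh1, the collagen chaperone HSP47, was at 424 ± 21.8 and 373 ± 26.2 FPKM, overlapping (adjusted p = 0.0853), and passed with limma-voom (0.0345). The one that rose was Plod1, a lysyl hydroxylase of the helix, from 45.9 ± 1.75 to 60.2 ± 0.819 FPKM (adjusted p = 0.00145).

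Of 14 genes listed here as collagen receptors 10 were tested, and 3 fell, 2 rose and 5 did not pass (median log2 fold change -0.10). Whether each member of the list, Cd93 among them, binds collagen was not tested. Among all tested genes 6.43% were lower and 11.5% higher, and counts out of 10 are too small to set far apart from these shares. Itga11, the fibroblast integrin for fibrillar collagen, fell from 60.9 ± 3.38 to 43.95 ± 1.08 FPKM (adjusted p = 0.00127). Mrc2, which takes up collagen fragments, fell from 33.6 ± 1.26 to 28.3 ± 0.514 (adjusted p = 0.011), and Ddr2, a receptor kinase for fibrillar collagen, from 16.5 ± 1.37 to 13.25 ± 1.10 (adjusted p = 0.0316). The Ddr2 call was lost without PBS replicate 1 (0.09), 2 (0.0679) or 3 (0.0511) and without GCA replicate 1 (0.0776) or 2 (0.0674). Mrc1, the macrophage mannose receptor, rose from 256 ± 15.9 to 401 ± 48.6 FPKM (adjusted p = 0.00311), and Cd93 from 53.96 ± 1.74 to 67.3 ± 3.42 (adjusted p = 0.0063). Mrc1 is also on the macrophage list.

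Collagen messages are known targets of the miR-29 family, whose members share the seed shown in capitals (bases 2 to 8). The mature sequences are from RefSeq.

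mmu-miR-29a-3p: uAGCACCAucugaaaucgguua

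mmu-miR-29b-3p: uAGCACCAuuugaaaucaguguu

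mmu-miR-29c-3p: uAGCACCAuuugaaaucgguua

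The match to this seed, TGGTGCT, was looked for on the sense strand of the annotated 3′UTR of the longest coding transcript. It was present in 16 of the 20 tested collagens with such a UTR (80%), against 1506 of 10638 tested genes (14.2%). Median UTR length was 1208 bases in the 16 and 2302 in all tested genes with a site. Without a site it was 1457 bases in the 4 collagens and 850 in all tested genes. For 5 members of the fibrillar and network classes 1 site is shown, in capitals, with its flanks. It is the first from the 5′ end, of 2 in Col4a2 and of 4 in Col5a1.

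Col1a1: tgggaaggaatttcTGGTGCTatagaagc

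Col3a1: tcaaaatgtctcaaTGGTGCTataataaa

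Col4a1: ccaccgtcacaacaTGGTGCTactccccc

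Col4a2: tgggaaggccacgtTGGTGCTtatccttc

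Col5a1: taactatgaacattTGGTGCTgaattttt

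Of the 16 collagens with a site 8 fell and 1 rose, with a median log2 fold change of -0.30. Of the 4 without one, Col1a2 and Col6a1 fell, Col12a1 and Col8a2 did not pass, and the median was -0.20. Over all tested genes, 114 were called lower and 142 higher of the 1506 with a site, with a median of -0.02. Of the 9132 without one, 596 were lower and 1131 higher, with a median of 0.01. Col18a1, which fell, and Col6a3, which did not pass, had no such UTR and are not counted here. Levels of the miRNAs were not analysed here, and a site is a match of letters, not a measured interaction.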

How the data were processed

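The values deposited by the authors are 1 number per Ensembl gene and library, identified from the values as FPKM: multiplied by the exon length in GENCODE M21 (GRCm38), 90.96% of nonzero values were whole fragments within 0.02. Per the submitters' processing notes, Bowtie 0.12.2 was used and mm8 and mm9 are the builds named. The counting tool, annotation and strand setting were not named: not given in the sources used here. Of 27263 genes, 27204 matched GENCODE M21, and coordinates come from it. The 11984 genes whose mean reached 1 FPKM were tested with limma-trend (limma 3.58.1, R 4.3.3; robust, two-sided) on log2(FPKM + 1) with treatment as the only term and Benjamini-Hochberg adjustment at 0.05. Fold changes on that scale understate those of low genes. Sums and ratios used exact permutation tests. The step was run on simulated data in which all genes had the same dispersion and the changes exceeded most collagen changes reported here. That run does not bear on smaller changes. Every tested member is named; all library values are given for members past the threshold and the most abundant of each class. Of the biosynthesis and receptor lists, up to 4 with the smallest p were named, plus Serpinh1, Lox, P4ha1, Ddr2 and Itga11. Members, lists and tests were chosen with earlier results of these data known. Within each group, all libraries differed by more than the sampling noise of their recovered fragments. Sequences came from GENCODE and RefSeq, and Python 3.11.15, numpy 2.4.6, pandas 2.3.3 and matplotlib 3.10.9 were used. Alternatives were quantile normalization, median centring, other filters, pseudocounts and thresholds, limma without trend and robust moderation, the replicate block and leaving out each library; limma-voom and a fit to protein-coding genes alone also stand in the text.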

Additional observations from a re-analysis of the deposited data

How the results depend on the processing

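Under all 16 alternative fits, Col3a1, Col4a1, Col4a2, Col4a5, Col8a1, Col11a1 and Col18a1 were called lower and Col2a1 higher at the 0.05 threshold. Of the 22 tested collagens, Col27a1, which was never called, changed direction: its log2 fold change ran from -0.025 (without PBS replicate 2) to 0.088 with 1 library left out. Leaving out 1 library at a time gave 1225 to 2078 called genes in all (2151 with all libraries), 7 to 11 lower collagens, 1 higher collagen, 11 to 18 called biosynthesis genes and 4 to 5 called receptors. With no filter on low values 1075 genes, 7 lower collagens and 9 biosynthesis genes were called, and at an adjusted p of 0.01 the numbers were 837 genes, 6 lower collagens, 7 biosynthesis genes and 3 receptors. The cause of the changed split of higher and lower genes after quantile normalization was not tested. The family sum was lower with GCA by 0.23 to 0.33 on the log2 scale whichever library was left out. The replicate numbers were not taken as pairs: deviations of same-numbered libraries correlated at only 0.082, 0.029 and 0.068, although each library correlated best with its own number. With the replicate block 2094 genes were called, 12 collagens lower (Col5a3 was added, adjusted p = 0.0296) and 1 higher. Depth limits the 22 members under 1 FPKM, and 3 libraries per group limit every exact test to a p of 0.1.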
